A study of Mus musculus with 12 samples.

Results

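The response to estrogen was measured in wild-type (WT) mouse endometrial epithelial organoids by comparing the 3 RNA-seq libraries labelled as estrogen-treated with the 3 labelled as untreated, 6 of the 12 libraries of the series. Organoids of this kind are epithelial cultures grown in a matrix gel from sheets of epithelium taken out of the mouse uterus, and the labels say that passage 3 cultures were used. The other 6 libraries came from organoids with a knockout (KO) of Esr1, untreated or treated, 3 of each, and they entered the fit as further groups. The 6 WT libraries are labelled wild type, and the labels name no strain, line, estrogen compound, dose or time of exposure. Uteri of 3 postnatal ages appear in the shared protocol, without saying which age gave these libraries. The submitters' treatment note states that organoids of neither genotype responded to estrogen, without naming the readout. Nothing ties the replicates to separate animals or cultures, so every p-value below measures only the spread between these libraries.

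Estrogen acts on the uterine lining through estrogen receptor alpha, the product of Esr1, a nuclear receptor that binds estrogen response elements in DNA and recruits coactivators once it holds its ligand. Greb1 and Pgr are direct targets of this receptor in many tissues, and in the mouse uterus estrogen raises secreted epithelial proteins such as lactoferrin (Ltf) and complement C3. It also drives the epithelium to divide, in part through growth factors that the stroma beneath it releases.

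The libraries held 84336449 to 106297315 counted reads untreated and 89792465 to 103796902 treated. Levels are given in CPM (counts per 1e+06 counted reads, scaled by trimmed mean of M values), in the order of replicates 1, 2 and 3. The adhesion protein Epcam stood at 994, 1090.3 and 1117 CPM without and 1215, 1072 and 1180.0 CPM with estrogen, and the summed level of 24 genes of simple epithelium ran from 9689 to 10921 CPM in the untreated and 10151 to 11143 CPM in the treated libraries. The summed level of 18 stromal fibroblast markers was 2.7 to 5.62 CPM in the untreated and 3.07 to 5.48 CPM in the treated libraries, with the patterning genes Hoxa10 and Hoxa11 among them. Endothelial markers summed to 5.81 to 9.71 CPM in the untreated and 6.75 to 8.19 CPM in the treated libraries, with Emcn and Cldn5 at 0 reads in all 6. Immune markers summed to 618 to 919.7 CPM in the untreated and 751 to 1117 CPM in the treated libraries. Much of that sum came from Cd14, a co-receptor for bacterial lipopolysaccharide (359, 378 and 629 CPM untreated against 643, 495 and 464 CPM treated). In untreated replicate 2, Cd14 held 378 of 791 CPM, and most of the rest came from list members not named here. The pan-leukocyte gene Ptprc stood at 6.12, 7.66 and 5.45 CPM untreated against 7.65, 3.87 and 4.87 CPM treated. Smooth muscle markers summed to 82.2 to 143 CPM in the untreated and 105 to 158 CPM in the treated libraries, nearly all from Smtn (135, 78.5 and 139.9 CPM untreated against 116, 154 and 101 CPM treated), with Myocd at 0 reads. Mesothelial markers summed to 2381 to 2891 CPM in the untreated and 2012 to 2710.0 CPM in the treated libraries, most of it Aldh1a2, a retinoic acid synthase (2355, 1906 and 2069 CPM untreated against 1749, 2129.7 and 1479 CPM treated), with Krt8, which simple epithelium also makes. The mesothelial genes Wt1, Lrrn4 and Upk1b had 0 reads in all 6. The part of these other-cell markers in the results below was not tested. In bulk RNA, fewer cells of a type and less RNA per cell cannot be told apart.

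The stretches of genome just upstream of 4 genes that carry the comparison are shown here, 3 of them classical estrogen targets (Greb1, Pgr and Ltf) and Tspan12, the gene with the smallest p-value. Each is the 250 bases before the start of the gene, 5′ to 3′ along the gene's own strand, from the RefSeq promoter table of build GRCm38.p6, which is older than the build named by the submitters. Capitals mark the half-site GGTCA of the estrogen response element, or TGACC on the other strand.
Greb1 (chr12:16800887-16801136, minus strand): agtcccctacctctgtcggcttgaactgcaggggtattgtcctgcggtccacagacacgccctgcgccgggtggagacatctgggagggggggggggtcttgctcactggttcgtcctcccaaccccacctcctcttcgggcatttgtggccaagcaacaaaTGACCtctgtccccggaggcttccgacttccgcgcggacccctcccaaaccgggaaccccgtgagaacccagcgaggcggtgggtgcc
Pgr (chr9:8899583-8899832, plus strand): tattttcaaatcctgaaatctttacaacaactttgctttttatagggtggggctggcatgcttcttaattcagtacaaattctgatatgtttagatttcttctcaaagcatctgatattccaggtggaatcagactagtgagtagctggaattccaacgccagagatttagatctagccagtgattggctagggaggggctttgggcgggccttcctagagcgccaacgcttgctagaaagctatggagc
Ltf (chr9:111019042-111019291, plus strand): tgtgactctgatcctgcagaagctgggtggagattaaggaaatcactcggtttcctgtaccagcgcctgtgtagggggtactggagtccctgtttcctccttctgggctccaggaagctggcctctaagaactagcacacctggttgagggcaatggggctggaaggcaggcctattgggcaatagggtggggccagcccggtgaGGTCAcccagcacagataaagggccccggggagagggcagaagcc
Tspan12 (chr6:21852534-21852783, minus strand): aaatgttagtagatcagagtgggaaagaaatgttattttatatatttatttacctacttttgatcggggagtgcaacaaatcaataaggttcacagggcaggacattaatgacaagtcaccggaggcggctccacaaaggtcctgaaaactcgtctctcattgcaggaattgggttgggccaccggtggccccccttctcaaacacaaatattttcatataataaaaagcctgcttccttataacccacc
The half-site was present once in the Greb1 window, once in the Ltf window, and not in the windows of Pgr and Tspan12. Greb1 has 2 windows in the table, and the first is shown. Of 32851 windows in the table, 35.2% held a half-site on either strand and 0.0639% held the full palindrome GGTCANNNTGACC. Of the 16465 genes tested, 12871 were matched to 16168 windows, and 2 of these windows held the full palindrome. None of the 32 windows of the early receptor targets described below held it, and 10 held a half-site. A match or its absence describes these letters only, and distant elements lie outside the windows.

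No gene passed the test for a difference between treated and untreated WT organoids. Of 16465 genes tested, edgeR's quasi-likelihood test with Benjamini-Hochberg adjustment called 0 at an adjusted p under 0.05, or 0%, and the smallest adjusted p was 0.322. At an unadjusted p under 0.05 it picked 883 genes, or 5.36%, of which 596 (3.62%) were higher and 287 (1.74%) lower with estrogen. A test without any real differences gives 5% on average, while the same fit picked 411 genes, or 2.5%, for estrogen in KO. DESeq2 called 63 genes, 59 higher and 4 lower, and limma-voom 0. At an unadjusted p under 0.05 limma-voom picked 2008 genes in WT. The median log2 fold change over all genes was 0.0033, and 50.8% of genes lay above 0.

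The same fit bounded how large a change could have gone unseen in each gene. The 95% interval of the log2 fold change lay within a 2-fold change in either direction for 12112 genes, or 73.6%. The precision followed the level of the gene. Among 8976 genes with a mean of at least 10 CPM, 8680 had such an interval, or 96.7%. Among the 4428 genes with a mean under 1 CPM, 22.7% did, with a median SE of 0.541 on the log2 scale. The median SE was 0.213 for genes between 1 and 10 CPM and 0.0998 for genes between 10 and 100 CPM. These intervals hold gene by gene and use a spread shared with the KO libraries. A fit of the 6 WT libraries alone tested 14478 genes, called 0, picked 590 at an unadjusted p under 0.05 and bounded 11474 within 2-fold.

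**Figure D1:**
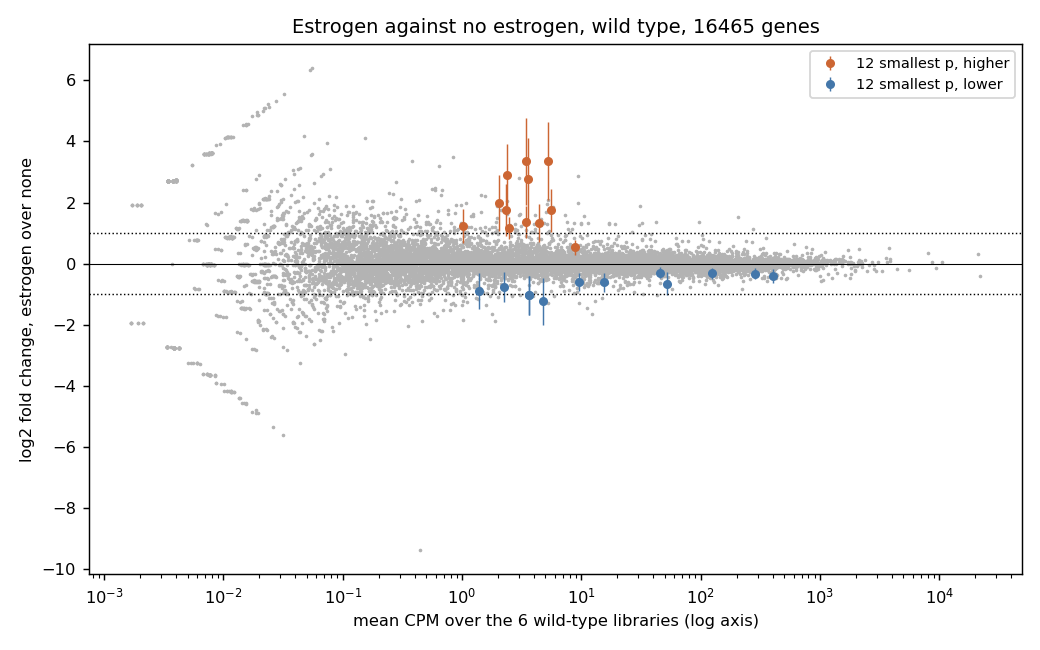
Log2 fold change of estrogen over none (y axis) against the mean CPM over the 6 WT libraries (x axis, log scale), 1 grey point per tested gene (genes at 0 in all 6 libraries fall off the log axis); coloured points are the 12 genes of smallest p in each direction with their 95% intervals, and dotted lines mark a 2-fold change. The scatter narrows with level, and the coloured higher genes all have means under 10 CPM.

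RNA of the receptor gene was present in every WT library. Esr1 stood at 318, 352 and 253 CPM without and 280.3, 330.3 and 344 CPM with estrogen (log2 fold change 0.05 ± 0.112 (SE), 95% interval -0.20 to 0.29, edgeR adjusted p = 0.998). The groups overlapped, and the interval bounds any change to well within 2-fold. Esr2, the gene of estrogen receptor beta, had 2 reads in treated replicate 1 and 0 in the other 5 libraries, which is below the floor of 3 reads. Gper1, a membrane receptor that binds estrogen, stood at 0.433, 0.425 and 1.01 CPM without and 0.411, 0.363 and 0.113 CPM with estrogen. Its log2 fold change was -1.07 with an interval from -2.24 to 0.11 (edgeR adjusted p = 0.947), and the groups did not overlap, although treated replicate 1 lay close to untreated replicates 1 and 2.

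Direct targets of the receptor were expressed but did not separate by treatment. Greb1, a cofactor of the receptor and among its earliest targets, stood at 155, 215 and 106 CPM without and 156, 192 and 264 CPM with estrogen (log2 fold change 0.36 ± 0.275 (SE), 95% interval -0.25 to 0.97, edgeR adjusted p = 0.947). Treated replicate 3 was the highest library and untreated replicate 3 the lowest, while untreated replicate 2 lay above treated replicates 1 and 2. Pgr, the progesterone receptor, stood at 48.3, 98.4 and 94.9 CPM without and 150.3, 79.3 and 137 CPM with estrogen (log2 fold change 0.60 ± 0.315 (SE), 95% interval -0.10 to 1.30, edgeR adjusted p = 0.947). Treated replicates 1 and 3 were the highest of the 6, and treated replicate 2 lay below untreated replicates 2 and 3. For Greb1 the upper end of the interval was 0.97, and for Pgr it was 1.30, so a 2-fold rise is outside the interval of Greb1 and inside that of Pgr.

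Counts of called list members below are those of edgeR with all 12 libraries, and members called by DESeq2 or by edgeR without treated replicate 1 are named beside them. Counts of list members at an unadjusted p under 0.05 stand beside 5.36% of all tested genes, 3.62% higher and 1.74% lower. Of 32 tested genes in the list of early receptor targets, 0 were called by any of these, 1 higher and 1 lower gene had an unadjusted p under 0.05, and 19 had intervals within 2-fold. Their median log2 fold change was 0.0076, with 16 above 0, and the sign of that median changed without untreated replicate 1 or 2 or treated replicate 1. Myb, a transcription factor gene that estrogen releases from transcriptional arrest in breast cells, stood at 8.59, 7.5 and 10.5 CPM without and 12.2, 15.8 and 13.5 CPM with estrogen (log2 fold change 0.64, edgeR adjusted p = 0.587). All 3 treated libraries lay above the untreated ones. Rerg, a RAS-like gene named for its induction by estrogen in breast cells, pointed the other way at 5.94, 4.72 and 4.08 CPM without and 3.41, 2.23 and 1.53 CPM with estrogen (log2 fold change -1.04, edgeR adjusted p = 0.625), with no overlap between the groups. Cyclin D1 (Ccnd1), picked here after its values were seen, was nearly level at 457, 468 and 469 CPM without and 472, 469.7 and 473 CPM with estrogen, with an interval from -0.37 to 0.41. So were Nrip1, a corepressor (67.3, 68.9 and 61.3 CPM untreated against 70.1, 67.8 and 67.6 CPM treated; interval -0.08 to 0.19), and Xbp1, a factor of the secretory pathway (1020.4, 1079 and 1057 CPM untreated against 982, 1044 and 1034 CPM treated; interval -0.26 to 0.17), also picked after their values were seen.

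Among genes that mark the estrogen response of the uterine epithelium, the treated and untreated ranges overlapped for Ltf, C3, Muc1, Lif and Areg. Ltf, the secreted iron-binding protein, stood at 3817, 1174 and 4326 CPM without and 1681, 8061 and 3573 CPM with estrogen (log2 fold change 0.52 ± 0.552 (SE), 95% interval -0.70 to 1.73, edgeR adjusted p = 0.958). Untreated replicate 2 was the lowest and treated replicate 2 the highest, and treated replicate 1 lay below untreated replicates 1 and 3. C3, the central complement component, stood at 18254, 22544 and 15099.7 CPM without and 17103, 23876 and 28674 CPM with estrogen (log2 fold change 0.32, edgeR adjusted p = 0.947), and treated replicate 1 again lay inside the untreated range. The mucin Muc1 was close to level at 76.9, 73.7 and 86.2 CPM without and 74.0, 80.4 and 68.7 CPM with estrogen, with an interval from -0.28 to 0.11 (edgeR adjusted p = 0.958). Lif, a cytokine that estrogen induces in uterine glands before implantation, stood at 34.4, 30.9 and 41.1 CPM without and 40.5, 37.9 and 33.6 CPM with estrogen, with an interval from -0.25 to 0.40 (edgeR adjusted p = 0.988). Areg, an EGF receptor ligand, was near the limit of detection at 0.0765, 0.0809 and 0.660 CPM without and 0.298, 0.0726 and 0.0451 CPM with estrogen, and its highest library was an untreated one.

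Of 36 tested members of that uterine list, edgeR called 0, and 4 higher and 1 lower gene had an unadjusted p under 0.05. DESeq2 and edgeR without treated replicate 1 each called 1, Wnt5a. The median log2 fold change was 0.05, but 0.13 without treated replicate 1 and 0.19 without untreated replicate 3. The 3 members of smallest p included Wnt5a, a secreted WNT ligand, at 51.4, 71.2 and 52.4 CPM without and 71.2, 99.1 and 121 CPM with estrogen (log2 fold change 0.74, edgeR adjusted p = 0.614). The highest untreated library and the lowest treated one nearly touched. Sprr2b, a small proline-rich protein with near-identical paralogs whose reads are uncertain, stood at 0.306, 0.384 and 0.510 CPM untreated against 0.596, 0.847 and 0.913 CPM treated. Klk1, a kallikrein protease, lay lower in all treated libraries at 177, 171 and 206 CPM untreated against 160.0, 115 and 140.3 CPM treated (log2 fold change -0.42, edgeR adjusted p = 0.838). Across all tested genes, the treated libraries lay above the untreated ones without overlap in 824 genes, or 5%, and below them in 571, or 3.47% (either way 8.47%). In this list the counts were 3 and 1.

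**Figure D2:**
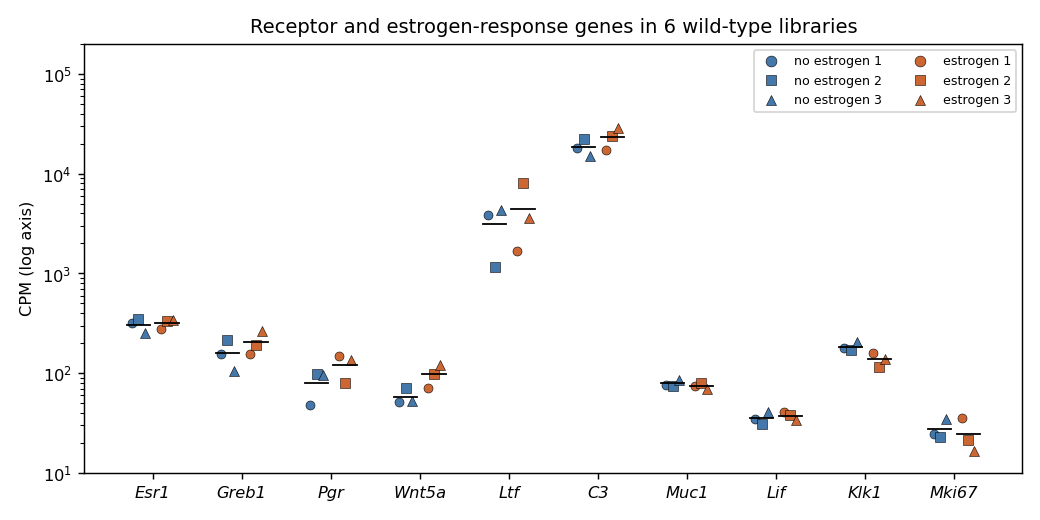
CPM (y axis, log scale) of 10 genes in the 3 untreated (blue) and 3 treated (orange) WT libraries, with marker shape giving the replicate and a line the group mean. Treated and untreated points overlap for Esr1, Greb1, Pgr, Ltf, C3, Muc1, Lif and Mki67, and lie apart for Klk1. For Wnt5a the highest untreated and the lowest treated point nearly coincide at 71.2 CPM.

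The genes of cell division, which estrogen drives in the uterus, gave no calls, and nearly all had intervals within 2-fold. Of 45 genes of replication and mitosis, 0 were called by edgeR or DESeq2, 0 had an unadjusted p under 0.05, and 44 had intervals within 2-fold. The median log2 fold change was -0.06, ranging from -0.35 to 0.27, with 13 above 0. Mki67, the proliferation marker, stood at 24.8, 23.1 and 34.4 CPM without and 35.4, 21.6 and 16.7 CPM with estrogen (log2 fold change -0.16, edgeR adjusted p = 0.987). Untreated replicate 3 and treated replicate 1 were its highest libraries, and treated replicate 3 was the lowest. The list median moved with single libraries, from -0.33 without treated replicate 1 to 0.10 without untreated replicate 3.

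The 12 genes of smallest p whose treated libraries all lay above the untreated ones had means from 1.02 to 8.85 CPM. Tspan12, a tetraspanin of the Norrin-Frizzled receptor complex, stood at 1.48, 1.25 and 1.85 CPM without and 2.80, 3.29 and 4.20 CPM with estrogen (log2 fold change 1.17 ± 0.163 (SE), 95% interval 0.81 to 1.53, edgeR adjusted p = 0.322). Anpep, the surface peptidase aminopeptidase N, stood at 0.229, 0.536 and 0.904 CPM without and 2.41, 3.03 and 7.14 CPM with estrogen (log2 fold change 2.90 ± 0.458 (SE), 95% interval 1.89 to 3.91, edgeR adjusted p = 0.503). Penk, the precursor of the enkephalin peptides, stood at 0.433, 0.95 and 1.39 CPM without and 3.43, 9.99 and 15.1 CPM with estrogen (log2 fold change 3.36 ± 0.574 (SE), 95% interval 2.09 to 4.62, edgeR adjusted p = 0.503). In each of these 3 genes treated replicate 1 was the lowest treated library and treated replicate 3 the highest.

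Sulf2, an endosulfatase that trims heparan sulfate, stood at 1.96, 2.56 and 3.04 CPM without and 4.22, 8.67 and 12.7 CPM with estrogen (log2 fold change 1.75, edgeR adjusted p = 0.530), and Gpc4, a glypican that carries such chains, at 0.331, 1.15 and 0.985 CPM without and 2.68, 1.88 and 5.29 CPM with estrogen (log2 fold change 1.98, edgeR adjusted p = 0.568). Stxbp6, a SNARE-binding protein of exocytosis, stood at 1.91, 1.68 and 2.18 CPM untreated against 3.11, 4.90 and 6.81 CPM treated, and Syde1 at 6.70, 7.52 and 7.41 CPM untreated against 9.66, 9.63 and 12.2 CPM treated. In the GRCm38 gene table Syde1 overlaps Ilvbl and Aspa overlaps Spata22. Counts in such pairs are uncertain, since strand was not used and reads on both genes were dropped, and 49 of the 141 genes under the naming rule overlap another gene.

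The others were metabolic or regulatory genes. Cbs, which makes cystathionine, stood at 1.96, 2.28 and 3.36 CPM untreated against 4.07, 6.06 and 8.96 CPM treated. Cbr2, a carbonyl reductase, stood at 0.408, 0.809 and 0.602 CPM untreated against 1.60, 3.93 and 13.3 CPM treated, with treated replicate 3 far above the other 2. Aspa, aspartoacylase, stood at 1.02, 0.981 and 1.18 CPM untreated against 1.85, 3.43 and 5.56 CPM treated, and Tnfrsf9, a co-stimulatory receptor of the TNF family, at 0.624, 0.607 and 0.602 CPM untreated against 1.04, 1.60 and 1.67 CPM treated. Cdkn2a, which encodes the cell cycle inhibitors p16 and p19ARF, stood at 0.968, 0.758 and 0.973 CPM without and 1.25, 8.65 and 8.73 CPM with estrogen, where treated replicate 1 sat near the untreated level. Log2 fold changes of the 12 ran from 0.54 in Syde1 to 2.90 in Anpep, 3.35 in Cbr2 and 3.36 in Penk, with edgeR adjusted p from 0.322 to 0.568.

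A single library was at the extreme in nearly all of these genes. Treated replicate 3 was the highest in all 12, and the lowest in 10 of the 12 genes ranked the same way in the other direction. Among all 592 genes with a mean of at least 1 CPM whose treated libraries lay above the untreated ones, 4.92% of 12037, treated replicate 3 was the highest in 444. Over all 12037 genes it was the highest in 3375. Without treated replicate 3 edgeR called 0 genes, and 398 had an unadjusted p under 0.05. Without treated replicate 1, the library nearest to the untreated ones in many of these genes, edgeR called 54, of which 45 were higher, and 1745 had an unadjusted p under 0.05. Without untreated replicate 3 it called 1, the pseudogene Tmem181b-ps. Of the 63 genes that DESeq2 called, 26 (41.3%) were also called by edgeR without treated replicate 1, where they made up 48.1%. These shared genes included Tspan12, Anpep, Penk, Sulf2, Cbr2, Cbs, Aspa, Stxbp6 and Cdkn2a of the 12.

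The 12 higher genes were low in WT and mostly more abundant in KO. In 11 of the 12 the untreated KO mean was at least 2-fold above the untreated WT mean, against 14.5% of the 12037 genes with a mean of at least 1 CPM and 138 (23.3%) of the 592 higher genes without overlap. Among the 12 lower genes it was 2. The lower genes leaned the other way. In 6 of those 12 (50%) the untreated KO mean was at least 2-fold below the untreated WT mean, and in 0 of the 12 higher genes. That share was 14.6% of the 12037 genes and 93 (21.4%) of the 434 lower genes without overlap. The untreated WT libraries enter both the comparison with KO and the comparison with treated WT. Untreated KO organoids averaged 330.1 ± 15.0 CPM of Anpep, 892 ± 107 CPM of Cbr2 and 44.0 ± 2.09 CPM of Tspan12 (SD, n = 3 each). The test pools its spread over WT and KO libraries, which stand at different levels for such genes. In the fit of the 6 WT libraries alone the edgeR adjusted p was 0.898 for Tspan12, Anpep, Penk and Cbr2.

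**Figure D3:**
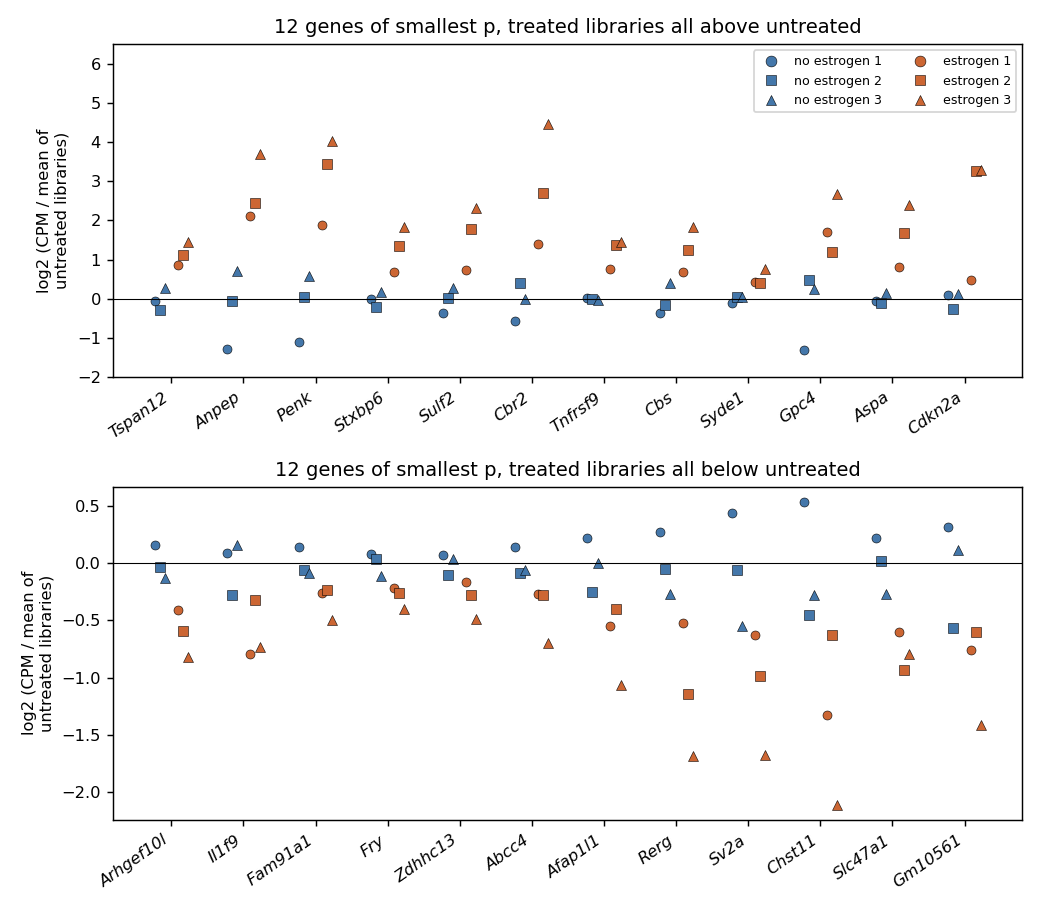
Log2 of each library's CPM over the mean of the 3 untreated libraries (y axis) for the 12 genes of smallest p in each direction (x axis), chosen so that treated (orange) and untreated (blue) points do not overlap. Treated replicate 3 (triangle) is the highest point in all 12 genes of the upper panel and the lowest in 10 of the 12 of the lower panel.

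The 12 genes of smallest p on the lower side differed less. They came from 434 genes with a mean of at least 1 CPM whose treated libraries all lay below the untreated ones, 3.61% of 12037. Il1f9, the cytokine interleukin 36 gamma, stood at 20.0, 15.5 and 20.9 CPM without and 10.8, 15.1 and 11.3 CPM with estrogen (log2 fold change -0.60, edgeR adjusted p = 0.587), and Arhgef10l at 12.9, 11.3 and 10.6 CPM without and 8.72, 7.65 and 6.52 CPM with estrogen (log2 fold change -0.60, edgeR adjusted p = 0.568). Abcc4, an exporter of cyclic nucleotides and prostaglandins, was among the more abundant at 503, 429 and 436 CPM without and 378, 375 and 281 CPM with estrogen (log2 fold change -0.40, edgeR adjusted p = 0.617). Fam91a1, which tethers vesicles at the Golgi, stood at 346, 302 and 296 CPM untreated against 263, 267 and 223 CPM treated, a log2 fold change of -0.33. Zdhhc13, a palmitoyltransferase, stood at 145, 128 and 142 CPM untreated against 123, 114 and 98.4 CPM treated.

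The remaining 7 lower genes were Fry, Afap1l1, Rerg (described above), Sv2a, Chst11, Slc47a1 and Gm10561. Chst11, a chondroitin sulfotransferase, had the most negative change of the 12 at 9.71, 4.90 and 5.51 CPM untreated against 2.67, 4.33 and 1.56 CPM treated (log2 fold change -1.23, edgeR adjusted p = 0.669). Slc47a1, an exporter of organic cations, stood at 3.29, 2.87 and 2.35 CPM untreated against 1.87, 1.49 and 1.63 CPM treated, and Sv2a, a vesicle glycoprotein, at 6.68, 4.73 and 3.37 CPM untreated against 3.18, 2.48 and 1.54 CPM treated. Gm10561 overlaps Rftn2. The smallest change was in Fry, a scaffold protein of cell shape, at 53, 51.5 and 46.5 CPM untreated against 43.2, 42.1 and 38.2 CPM treated, a log2 fold change of -0.29.

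Among markers of gland and lumen, the epithelia of the uterine glands and of the uterine cavity, edgeR called 0. DESeq2 called Foxa2 and Il1r1, and edgeR without treated replicate 1 called Cited4. Of 13 tested gland markers, 11 had a log2 fold change above 0, and the median was 0.45, against 0.0033 over all genes. On the higher side 4 had an unadjusted p under 0.05, against 3.62% of all genes. Foxa2, the transcription factor of uterine glands, stood at 0.968, 2.43 and 1.99 CPM without and 3.31, 3.00 and 3.87 CPM with estrogen (log2 fold change 0.91, edgeR adjusted p = 0.617), with all treated libraries above the untreated ones. Cited4, a transcriptional coregulator, stood at 27.0, 30.8 and 19.2 CPM without and 27.7, 50.7 and 74.5 CPM with estrogen (log2 fold change 0.99, edgeR adjusted p = 0.707), where treated replicate 1 lay inside the untreated range. Ces1d, a carboxylesterase with close paralogs, stood at 0.357, 0.869 and 0.533 CPM untreated against 1.03, 0.920 and 3.40 CPM treated. Summed gland markers ran from 5103 to 12284 CPM in the untreated and 8264 to 13043 CPM in the treated libraries, and Prss28, Prss29, Spink1, Ttr and Slc26a7 had 0 reads in all 6. Of 17 luminal markers, 10 lay above 0 with a median of 0.32, which was -0.03 in the fit of WT alone. Il1r1, the interleukin 1 receptor, stood at 0.127, 0.142 and 0.116 CPM untreated against 0.288, 0.242 and 0.766 CPM treated. Untreated KO organoids averaged 65.5 CPM of Foxa2, 390 CPM of Ces1d and 14.3 CPM of Il1r1, far above WT. Their mean of Cited4 was 23.9 CPM, near the untreated WT mean of 25.7 CPM. The part of these KO levels in the WT values was not tested.

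Of 34 tested genes of ciliated cells, edgeR called 0, DESeq2 called 1 (Foxj1), and 3 had an unadjusted p under 0.05, all higher, and the median was 0.01. The count filter ran over all 12 libraries, KO included. In the fit of the 6 WT libraries alone, 17 genes of this list passed the filter and were tested. Foxj1, the transcription factor that switches on motile cilia, stood at 0, 0.0202 and 0.0232 CPM without and 0.165, 0.194 and 0.0676 CPM with estrogen (log2 fold change 3.12, edgeR adjusted p = 0.587). The Foxj1 reads were 0, 2 and 2 untreated and 16, 16 and 6 treated, while untreated KO organoids averaged 397 ± 86.3 CPM (SD, n = 3), and the part of that difference in these few reads was not tested. Only treated replicates 1 and 2 held at least 10 reads, the minimum count of the filter. Foxj1 therefore entered the test, and the DESeq2 call, through the KO libraries. Gmnc, Cdc20b, Deup1, Ccdc153, Lrrc23 and Sntn had 0 reads in all 6. Of 31 basal and squamous genes, 0 had an unadjusted p under 0.05, and 18 lay above 0. The fit of WT alone tested 19 genes of this list. Krt6b, a keratin of stressed and stratified epithelium, was the most abundant of the 3 of smallest p, at 40.4, 97.2 and 71.5 CPM without and 141, 70.9 and 192 CPM with estrogen (log2 fold change 0.95, edgeR adjusted p = 0.947), with the groups overlapping.

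Among genes of hormone receptors, metabolism and progesterone response edgeR called 0, and DESeq2 called 1, Foxa2, which is also on the list of receptors and cofactors. Of 22 steroid receptors and cofactors, 15 had intervals within 2-fold and the median was -0.05. Ncoa3, a coactivator of the receptor, stood at 33.2, 31.4 and 37.0 CPM without and 32.4, 30.4 and 27.6 CPM with estrogen (log2 fold change -0.17, edgeR adjusted p = 0.924). Of 19 genes of steroid metabolism, Cyp1b1, which hydroxylates estradiol, and Hsd17b10, a mitochondrial dehydrogenase, had an unadjusted p under 0.05, both higher. Hsd11b1, which regenerates active glucocorticoid, stood at 1136, 1272 and 1002 CPM without and 1128, 750.1 and 699.7 CPM with estrogen (log2 fold change -0.40, edgeR adjusted p = 0.947), where treated replicates 2 and 3 were the lowest libraries and treated replicate 1 was at the untreated level. Of 17 progesterone-response genes, Hdc, which makes histamine, was higher and Sgk1 lower at an unadjusted p under 0.05. The kinase gene Sgk1 stood at 518, 369.6 and 408 CPM without and 298, 358 and 217 CPM with estrogen (log2 fold change -0.57, edgeR adjusted p = 0.843) without overlap.

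In 3 metabolic groups edgeR called 0 genes, and DESeq2 called 1, Mvd. Of 25 cholesterol synthesis and uptake genes, 21 had a log2 fold change above 0, and in 7 the treated libraries all lay above the untreated ones (5% over all genes), with a median of 0.16. Mvd, which makes isopentenyl diphosphate, stood at 11.8, 12.3 and 11.8 CPM without and 16.0, 16.8 and 14.4 CPM with estrogen (log2 fold change 0.40, edgeR adjusted p = 0.568), and Tm7sf2, a sterol reductase, at 12.5, 12.2 and 11.4 CPM without and 15.3, 13.3 and 14.5 CPM with estrogen (log2 fold change 0.25, edgeR adjusted p = 0.818). Of 45 ribosomal protein genes, 44 lay above 0 with a median of 0.10, none had an unadjusted p under 0.05, and all 45 intervals lay within 2-fold. In 2 of the 45 the treated libraries all lay above the untreated ones. Their summed level overlapped between the groups, at 34233 to 37524 CPM in the untreated and 35331 to 41043 CPM in the treated libraries. Of 31 respiratory chain genes, 29 lay above 0 with a median of 0.11, and in 5 the treated libraries all lay above the untreated ones. Cox6a1, a subunit of cytochrome c oxidase, stood at 135, 149 and 139.6 CPM without and 172, 149 and 188 CPM with estrogen (log2 fold change 0.27, edgeR adjusted p = 0.838). These 3 medians kept their sign with library-size scaling, with DESeq2 size factors in edgeR, in the fit of WT alone and without any 1 of the 6 WT libraries. Without treated replicate 3 the ribosomal median was 0.06 and that of the respiratory chain 0.04. In KO the medians of the same lists were 0.12, 0.05 and 0.0045.

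Among defence and stress genes edgeR called 0, and without treated replicate 1 it called Icam1. Of 39 interferon-stimulated genes, 5 lower and 1 higher gene had an unadjusted p under 0.05 and the median was -0.27, but 0.06 without untreated replicate 3. Ifit1, an interferon-induced RNA-binding protein, stood at 0.637, 0.324 and 1.69 CPM without and 0.370, 0.290 and 0.203 CPM with estrogen (log2 fold change -1.60, edgeR adjusted p = 0.818), with untreated replicate 3 highest. Of 33 NF-kB and inflammatory genes, 9 lay above 0 with a median of -0.12, and that median was 0.08 without untreated replicate 3. Icam1, an adhesion molecule, stood at 3.55, 2.93 and 3.57 CPM without and 2.85, 6.16 and 6.51 CPM with estrogen (log2 fold change 0.63, edgeR adjusted p = 0.849). Of 30 unfolded protein and stress response genes, 29 had intervals within 2-fold. Of 30 hypoxia and glycolysis genes, 27 did, and 8 lay above 0, with a median of -0.07 that was 0.0015 without untreated replicate 3. Egln3, a prolyl hydroxylase of the hypoxia response, stood at 375, 287 and 349 CPM without and 288, 279 and 216 CPM with estrogen (log2 fold change -0.37, edgeR adjusted p = 0.868).

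Among secreted proteins, Agr2, a disulfide isomerase needed to make mucins, stood at 0.561, 1.36 and 0.95 CPM without and 1.60, 2.49 and 5.75 CPM with estrogen (log2 fold change 1.75, edgeR adjusted p = 0.587) without overlap. Untreated KO organoids averaged 76.8 CPM of Agr2. Of 22 tested mucin and defence genes, 11 lay above 0 and edgeR called 0, while DESeq2 and edgeR without treated replicate 1 each called Agr2. Of 34 ion and water transport genes, 26 lay above 0 with a median of 0.21, which was 0.10 without treated replicate 1 and 0.14 in the fit of WT alone, and 2 had an unadjusted p under 0.05, both potassium channel genes. They were the channel Kcnn4 (0.127, 0.0607 and 0.127 CPM untreated against 0.411, 0.145 and 0.428 CPM treated) and Kcne3, a subunit that modulates such channels (0.293, 0.364 and 0.348 CPM untreated against 0.370, 0.726 and 1.62 CPM treated). edgeR without treated replicate 1 called Kcne3. Of 22 immediate early genes, 2 had an unadjusted p under 0.05. Both were lower, Klf10 and Fosl2, the latter an AP-1 subunit at 529.6, 517 and 509 CPM without and 464, 442 and 399 CPM with estrogen (log2 fold change -0.25, edgeR adjusted p = 0.785) without overlap. Of 29 genes of the TGF-beta, BMP and activin pathway, 3 had an unadjusted p under 0.05. Ltbp2, a matrix protein, stood at 1.03, 0.728 and 1.09 CPM without and 0.997, 2.74 and 2.84 CPM with estrogen (log2 fold change 1.21, edgeR adjusted p = 0.617), where treated replicate 1 was at the untreated level. DESeq2 and edgeR without treated replicate 1 each called Ltbp2.

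In the remaining lists edgeR called 0 genes. DESeq2 called Wnt5a among WNT targets and Vim among stromal markers, and edgeR without treated replicate 1 called Wnt5a. Genes with an unadjusted p under 0.05 (5.36% of all tested genes) numbered 3 of 30 among WNT targets, 1 of 28 among growth factor genes, 2 of 20 in the Notch pathway, 1 of 20 in the retinoic acid pathway, 2 of 15 among prostaglandin genes, 1 of 22 among p53 targets, 0 of 30 among matrix and protease genes and 1 of 24 in simple epithelium. In the lists of other cell types, such genes numbered 1 of 8 for stroma, 0 of 7 for smooth muscle, 2 of 10 for immune cells, 0 of 6 for endothelium and 0 of 5 for mesothelium. The stromal gene was the intermediate filament Vim, at 0.166, 0.0607 and 0.139 CPM untreated against 0.247, 0.363 and 0.316 CPM treated.

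The KO organoids, whose libraries are separate from those of the WT comparison, also gave 0 calls. edgeR called 0 of 16465 genes for estrogen in KO, or 0%, with a smallest adjusted p of 0.187, and 411 had an unadjusted p under 0.05, or 2.5%. DESeq2 called 20 and limma-voom 1. The test of whether the response differed between genotypes also called 0, or 0%, with a smallest adjusted p of 0.871 and 726 genes at an unadjusted p under 0.05, or 4.41%, while DESeq2 called 25. With the replicate block, edgeR called 0 in KO and 4 for the difference between genotypes. An unadjusted p under 0.05 was found for 883 genes in WT (5.36%) and 411 in KO (2.5%). Both genotypes shared 7 of these genes with the same sign and 15 with opposite signs. Whether these counts differ from those of unrelated gene sets was not tested. For the genes named first above, KO log2 fold changes were 0.04 in Tspan12, 0.36 in Anpep, 0.10 in Penk, 0.33 in Greb1 and 0.32 in Pgr. Of the 12 higher genes, 7 had a KO change above 0, and of the 12 lower genes, 2 had one below 0.

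The spread within the WT groups was as large as the distance between them. Over all tested genes, the root mean square (RMS) log2 difference between 2 libraries of the same group ran from 0.516 to 0.694 over 6 pairs, with a median of 0.595. Between a treated and an untreated library it ran from 0.489 to 0.812 over 9 pairs, with a median of 0.554. The nearest pair of all was untreated replicate 3 with treated replicate 1, and the farthest was untreated replicate 3 with treated replicate 3. The first principal component of the 6 libraries carried 42.9% of the variance. It placed untreated replicate 3 at one end (-46.4), followed by treated replicate 1 (-25.5), untreated replicate 1 (-15.8), untreated replicate 2 (11.9), treated replicate 2 (22.3) and treated replicate 3 (53.5), so that treatment groups were interleaved. The median SD of log2 CPM within a group was 0.168, and 674 genes had an SD above 1.

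**Figure D4:**
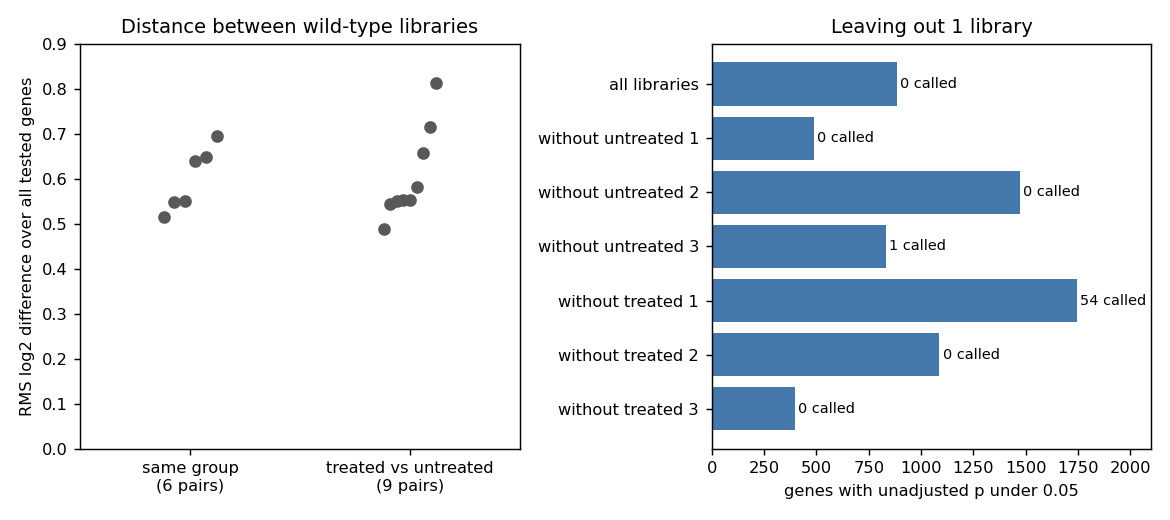
Left, RMS log2 difference over 16465 genes (y axis) for pairs of WT libraries of the same group (6 points) and of different treatment (9 points), with overlapping ranges of 0.516 to 0.694 and 0.489 to 0.812. Right, number of genes with an unadjusted p under 0.05 (x axis) with all libraries or without 1 WT library (y axis), with the number called at an adjusted p under 0.05 beside each bar; leaving out treated replicate 1 gave 54 calls.

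The genes with the largest spread within WT groups were chosen for that spread, and their values are a description. Of the 12 with the largest SD among genes with a mean of at least 10 CPM, treated and untreated libraries overlapped in all 12. Untreated replicate 3 was the highest in 9 and treated replicate 3 the lowest in 9. Cldn1, a tight junction claudin, stood at 21.5, 7.84 and 79.8 CPM without and 48.9, 7.35 and 1.74 CPM with estrogen, and Ptgs2, the inducible cyclooxygenase of prostaglandin synthesis, at 42.8, 18.7 and 184 CPM without and 141, 21.2 and 7.05 CPM with estrogen. Akap12, a scaffold for protein kinase A, stood at 64.4, 28.0 and 218 CPM without and 150.0, 23.8 and 7.75 CPM with estrogen, and Dusp1, a phosphatase of MAP kinases that is switched on early by stress and growth factors, at 17.9, 8.07 and 58.4 CPM without and 39.1, 7.60 and 2.46 CPM with estrogen. In these 4 genes untreated replicate 3 and treated replicate 1 were the highest pair, and treated replicate 3 was the lowest library.

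A further 5 of the 12 had the same highest and lowest libraries. Crct1, a cornified envelope gene, stood at 29.8, 14.2 and 86.9 CPM without and 55.2, 7.70 and 3.26 CPM with estrogen, S100a14, a calcium-binding protein, at 13.4, 5.44 and 36.1 CPM without and 16.9, 4.74 and 1.93 CPM with estrogen, Dmkn, a secreted epidermal protein, at 9.06, 3.51 and 28.4 CPM without and 16.9, 6.79 and 2.52 CPM with estrogen, and Asprv1, a skin protease, at 18.5, 3.84 and 26.2 CPM without and 10.3, 6.0 and 1.49 CPM with estrogen. Untreated replicate 1 rather than treated replicate 1 was second in Asprv1. Slc26a1, a sulfate transporter that overlaps Idua, stood at 11.9, 5.90 and 22.3 CPM without and 17.5, 5.53 and 1.51 CPM with estrogen. The other 3 had orders of their own. Slc15a2, a peptide transporter with the largest SD of all at 2.22, was low in untreated replicate 3 and treated replicate 1 and high in the other 4 libraries, at 59.9, 59.1 and 4.32 CPM without and 3.21, 50.7 and 46.0 CPM with estrogen. Upk1a, a uroplakin of the apical membrane, was highest in treated replicate 3, at 3.53, 32.8 and 3.02 CPM without and 31.8, 11.8 and 101 CPM with estrogen. Cyp24a1, which breaks down vitamin D and overlaps Pfdn4, stood at 7.89, 19.7 and 12.3 CPM without and 30.9, 1.32 and 5.54 CPM with estrogen.

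**Figure D5:**
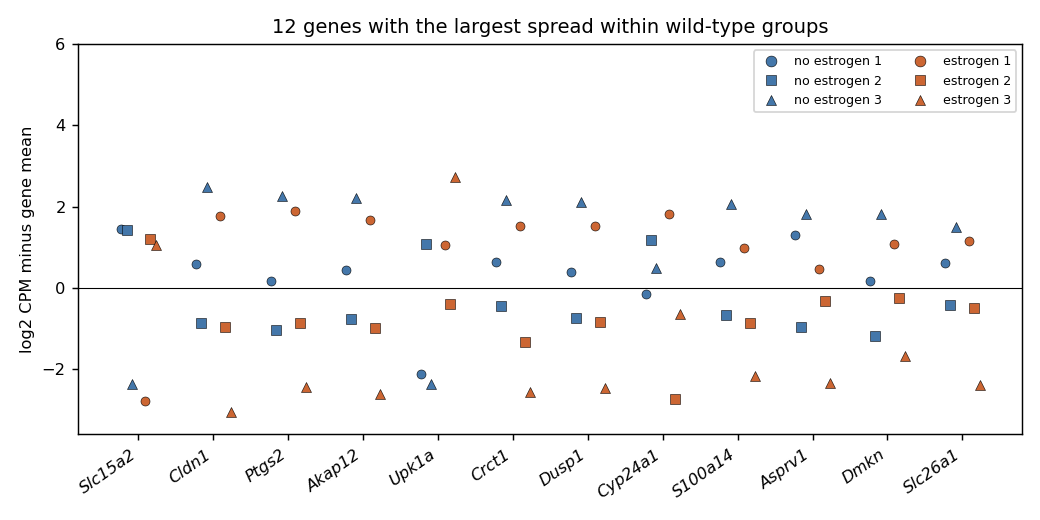
Log2 CPM minus the gene's mean over the 6 WT libraries (y axis) for the 12 genes with the largest spread within groups (x axis), blue untreated and orange treated, shape giving the replicate. Untreated replicate 3 (blue triangle) is the highest point in 9 genes and treated replicate 3 (orange triangle) the lowest in 9.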

How the data were processed

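Bulk RNA-seq (TruSeq mRNA kit, paired-end) gave raw read counts per gene for 26264 genes, which the authors deposited as 1 featureCounts table per library. Per the submitters' processing notes the aligner was STAR 2.7.10b on GRCm39, after Trim Galore 0.6.6, with featureCounts 2.0.3 as the counter, while the file headers name featureCounts 2.0.0. Per the file headers each mate was counted on its own, without strand, and reads on more than 1 gene were dropped, so counts are not independent fragments. Each WT library held 84336449 to 106297315 counted reads.

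Genes passing filterByExpr (minimum count 10, total 15) over all 12 libraries were tested in edgeR 4.0.16 (R 4.3.3) with TMM scaling, 4 groups and robust quasi-likelihood F-tests with Benjamini-Hochberg adjustment at 0.05. The 95% intervals used the SE implied by the F statistic, and the fit was tested on simulated data. The genes named were fixed receptors and targets, called genes, the 12 of smallest p in each direction (mean at least 1 CPM, no overlap), the 12 of largest spread (at least 10 CPM) and 3 per list, plus those marked as picked later and cell markers. The genes and lists were chosen with earlier results of these data known. Alternatives were the fit of WT alone, a block, other scalings and filters, DESeq2 1.42.0, limma 3.58.1 voom and leaving out each library. KO replicate numbers paired (correlations of deviations 0.568, 0.501 and 0.409 within a number). No 2 WT libraries of a group agreed within sampling noise.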

Additional observations from a re-analysis of the deposited data

How the results depend on the processing

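The WT count of 0 genes by edgeR was also 0 with the 6 WT libraries alone, library-size or DESeq2-type scaling, limma-voom, no count filter or at least 1 CPM in 3 libraries. DESeq2 called 63 in WT, 20 in KO and 25 for the interaction, and limma-voom 1 in KO. Leaving out 1 library gave 0 to 54 calls in WT (54 without treated replicate 1, 1 without untreated replicate 3), 0 to 4 in KO and 0 to 6 for the interaction. Genes at an unadjusted p under 0.05 in WT numbered 2008 by limma-voom and 398 to 1745 with 1 library left out. The median SD within WT groups was 0.139 with at least 1 CPM in 3 libraries. A replicate block gave 7 calls in WT, all higher (Vnn1, Zfp521, Sprr2b, Penk, Tspan12, Ccnd2 and Anpep, with 3 of these outside the naming rule), and 4 for the interaction. WT numbers did not pair, since deviations of same-numbered libraries correlated at -0.16, -0.16 and -0.39 and no library correlated best with its own number. Deviations did correlate across numbers. The values were 0.27 for untreated replicate 1 with treated replicate 2, 0.46 for untreated 2 with treated 3 and 0.40 for untreated 3 with treated 1. Whether such libraries share a source was not tested. Among the genes compared in the text, those chosen for their spread left aside, signs turned when 1 library was left out, with log2 fold changes from -2.19 to 0.84 for Areg (above 0 without untreated replicate 3), from -0.073 to 0.16 for Esr1 (below 0 without untreated replicate 3 or treated replicate 3), from -0.016 to 0.19 for Lif (below 0 without untreated replicate 2), from -0.24 to 0.91 for Ltf (below 0 without treated replicate 2) and from -0.52 to 0.057 for Mki67 (above 0 without untreated or treated replicate 3). The cause was not tested. Intervals lay within 2-fold in 22.7% of genes with a mean under 1 CPM, and the part of depth in this was not tested.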
